A study of Mus musculus with 17 samples.

Results

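The activated B cells of wild-type (WT) mice were compared with the naive B cells of the same genotype, using 3 activated and 3 naive libraries out of the 17 in the series. The 6 libraries were chosen by their labels, as WT activated replicates 1, 3 and 4 and WT naive replicates 1, 3 and 4, and were fitted on their own over 13445 expressed genes of 55536 in the table. Both populations were obtained by flow cytometry from spleen, and RNA from these small sorted samples was amplified as full-length cDNA before read pairs were sequenced and counted per gene. Neither group carried a knock-in or a treatment that the labels name, and the gates, the age of the mice, any immunisation and the time after it are not stated in the labels or processing notes. The other libraries of the series were germinal centre cells of WT mice and naive, activated and germinal centre cells of mice with a knock-in of p52 (p52ki), an NF-kB subunit made from Nfkb2.

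A naive B cell carries IgM and IgD on its surface and recirculates through the follicles of lymphoid organs. When its receptor meets antigen it can divide, switch its heavy chain gene from Ighm and Ighd to a downstream constant gene, enter a germinal centre or become an antibody-secreting cell. The spleen also holds marginal zone and B-1 cells, innate-like B cells that respond quickly to blood-borne antigens and that share some surface proteins with B cells that have met antigen.

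Counts assigned to genes totalled 6211583, 8553748 and 8599156 in activated replicates 1, 3 and 4, against 8113977, 7836022 and 7780482 in naive replicates 1, 3 and 4. Genes with a count numbered 16745 to 19303 in activated libraries and 18159 to 19625 in naive libraries, and mitochondrial genes took 3.25 to 5.52% of counts in activated libraries against 3.19 to 4.83% in naive libraries. Rank correlation of gene levels between libraries of a group was 0.891, 0.938 and 0.949 among activated libraries, against 0.975 to 0.982 among naive libraries. Activated replicate 3 was the closest of the 3 to the naive libraries, at 0.945 to 0.956, and activated replicate 1 the farthest, at 0.880 to 0.904. The defining B cell genes were high in both groups, with Cd79a at 6415, 3588 and 4683 CPM, counts scaled to a common library size, in activated libraries and 4732, 3928 and 4082 CPM in naive libraries.

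By edgeR's quasi-likelihood test 352 genes (2.62% of those tested) passed an adjusted p of 0.05, and such genes are called below. Of these, 288 were higher in activated cells (2.14%) and 64 lower (0.476%). Constant, joining and variable genes of the immunoglobulin loci were 59 of the higher ones (20.5%), with 50 variable segments higher and 0 lower among the 189 tested, and 214 of the higher and 56 of the lower genes were protein-coding. With the replicate number as a block in the model, 399 genes were higher (2.97%) and 122 lower (0.907%). Each of the 6 libraries moved the count by more than 1.5 times when left out. It was 91, 88 and 92 without naive replicate 1, 3 or 4, and 602, 1142 and 145 without activated replicate 1, 3 or 4. In all 6 of these fits 71 genes were called, 59 of them higher and 12 lower, and the fold change of each of the 352 kept its sign in every one of them. With all 17 libraries sharing 1 estimate of the spread, 39 genes were higher and 10 lower, all of them among the 352; in that fit 5 heavy constant genes, 4 of the G2 and M phase, 1 of the B-1 list and 0 of the marginal zone list below were higher, and 3 naive follicular genes lower.

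**Figure D1:**
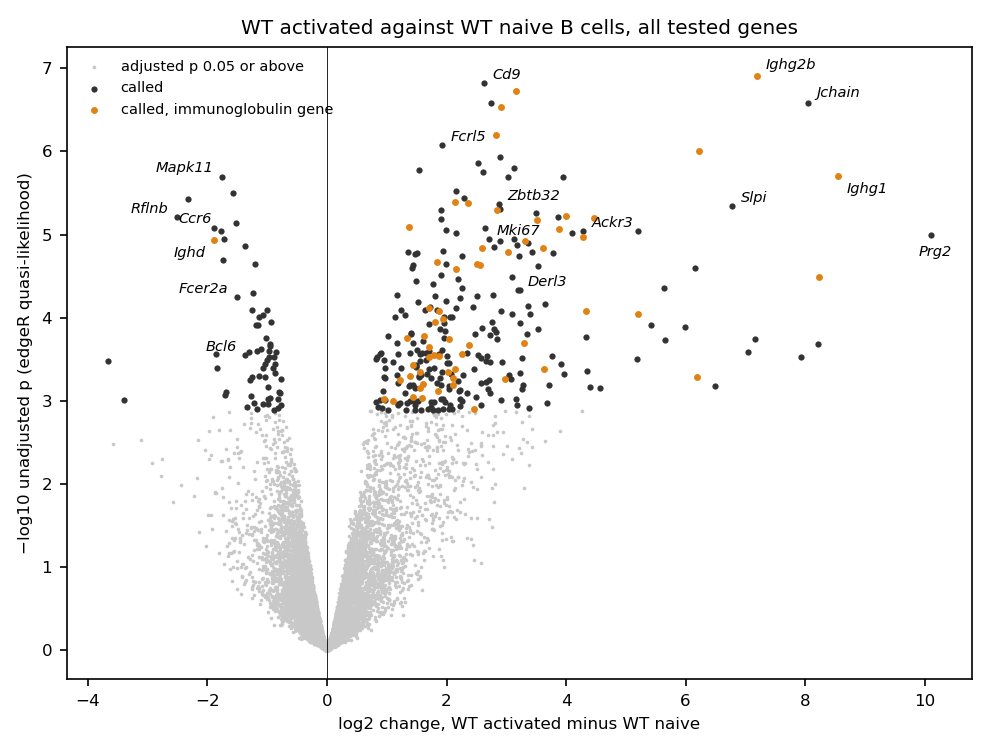
Each point is 1 of 13445 tested genes, with the log2 change (WT activated minus WT naive) across and −log10 of the unadjusted p of edgeR's quasi-likelihood test upwards. Black points are the called genes and orange ones those of the immunoglobulin loci; of the 352 called, 288 lie to the right of 0 and 64 to the left, and the labels mark genes described in the text.

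The largest group of changes was in the antibody genes. Of the 8 heavy chain constant genes, all tested, 7 were higher in activated cells and 1, Ighd, was lower, with a median log2 change of 6.20 against -0.0033 over all tested genes. Among all tested genes 2.14% were higher and 0.476% lower. Ighg1, the constant region of IgG1 (chromosome 12, 113325240 to 113330523 on GRCm38), stood at 2452, 1172 and 8396 CPM in the activated replicates 1, 3 and 4, against 10.8, 4.16 and 16.97 CPM in the naive ones. The lowest activated library was thus far above the highest naive library, while the activated libraries differed widely among themselves; the log2 change was 8.56 (SE 0.883, adjusted p = 0.00151). Without activated replicate 1 the adjusted p of Ighg1 was 0.0913. Ighg2b, of IgG2b, was at 519.8, 493 and 1653 CPM against 7.29, 5.14 and 5.66 CPM in naive libraries (log2 change 7.20, SE 0.552, adjusted p = 0.000657). Ighg3, of IgG3, was at 427, 208 and 1061 CPM against 7.29, 9.54 and 5.78 CPM in naive libraries (log2 change 6.22, SE 0.596, adjusted p = 0.00149), with an adjusted p of 0.0649 without activated replicate 1. In these genes, and in Ighm (16517, 14116 and 21667 CPM in activated and 7134, 6610.3 and 6865 CPM in naive libraries, log2 change 1.34, SE 0.233, adjusted p = 0.0156), activated replicate 4 was the highest of the 6 libraries.

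The other 3 switched constant genes were at low levels in naive cells. Ighg2c had 137, 90.9 and 308 CPM in activated libraries and 0, 0.245 and 7.16 CPM in naive libraries, so that naive replicate 4 held nearly all of the naive signal, and its adjusted p was 0.0281 (log2 change 6.18, SE 1.10; up to 0.216 with a library left out, and not called without any one of them other than naive replicate 4). Ighe, of IgE, had 335 counts in the activated libraries and 1 in the naive libraries, a ratio of 356 after scaling to library size with a counting interval of 63.5 to 14104. Igha, of IgA, was at 83.3, 92.4 and 473 CPM against 15.8, 8.81 and 7.42 CPM in naive libraries (log2 change 4.34, SE 0.686, adjusted p = 0.00979). Ighe was not called without naive replicate 1 or 3 (adjusted p up to 0.0750), Igha without any naive replicate or activated replicate 1 (up to 0.130), and Ighm without any naive replicate or activated replicate 4 (up to 0.142). The number of the 8 genes called was 4, 4 and 6 without naive replicate 1, 3 or 4, and 4, 7 and 6 without activated replicate 1, 3 or 4. The constant genes of the IgG subclasses share stretches of near-identical sequence, so reads may be split among them or lost, and the values of each are uncertain to that extent.

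Ighd, the IgD constant region and a mark of B cells that have not switched, was at 1229, 785 and 1349 CPM in activated libraries against 4406, 3803 and 4304 CPM in naive libraries (log2 change -1.90, SE 0.238, adjusted p = 0.00295; called in all 6 fits with a library left out). Zfp318, a zinc finger protein required for the long transcript that carries IgD, was chosen after its values were seen. It stood at 57.6, 60.3 and 55.1 CPM in activated libraries and 139.9, 193 and 162 CPM in naive libraries, with no overlap (log2 change -1.52, SE 0.181, adjusted p = 0.00265).

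As shares of all heavy constant counts, which are not corrected for gene length, Ighg1 held 11.5%, 6.91% and 24.0% in activated replicates 1, 3 and 4, against 0.0934%, 0.0398% and 0.151% in naive ones. The constant genes downstream of Ighd together held 17.1%, 12.1% and 34.1% in activated libraries against 0.357%, 0.267% and 0.383% in naive libraries. Ighm remained the largest share in every activated library, at 77.2%, 83.2% and 62.0%, against 61.6%, 63.3% and 61.2% in naive libraries. Ighd held 5.74%, 4.63% and 3.86% in activated libraries and 38.0%, 36.4% and 38.4% in naive libraries. The switched and Ighd shares did not overlap between the groups; with 3 libraries against 3 the exact two-sided permutation test cannot go below p = 0.1, which it gave for both and for Ighg1, while Ighm gave p = 0.2. Over the 12 antibody measures computed, the Benjamini-Hochberg adjusted values were 0.109, and 0.2 for Ighm. Antibody genes as a whole took 7.83%, 4.77% and 10.03% of all counts in activated libraries, against 3.45%, 2.86% and 3.01% in naive libraries. Cells that had not switched and cells that had are mixed in such a bulk sample, so a change in the number of cells of a type and a change in RNA per cell cannot be told apart here or in the results that follow.

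**Figure D2:**
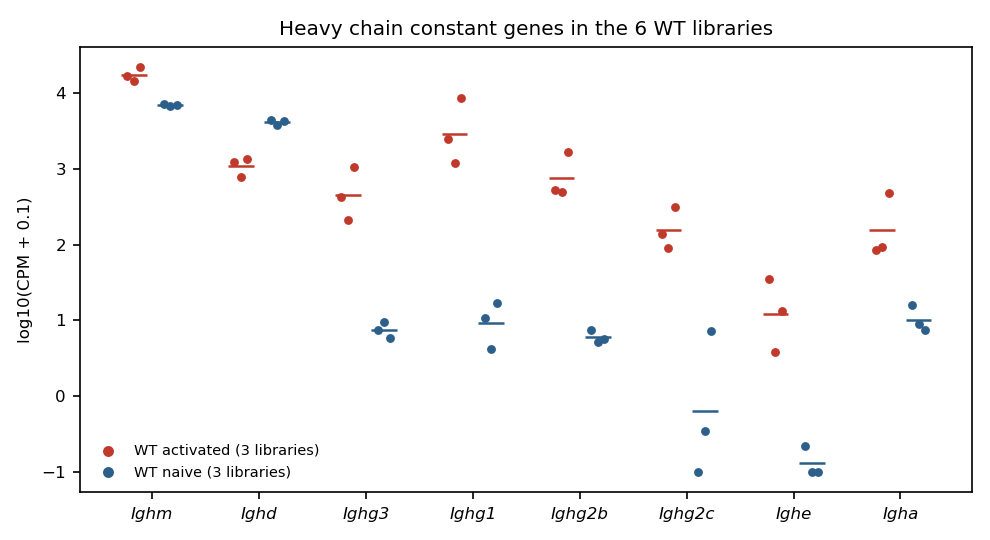
Each dot is 1 WT library and each short line the mean of the 3 plotted values, on a log axis of log10(CPM + 0.1), for the 8 heavy chain constant genes with activated libraries in red and naive ones in blue. The 3 activated libraries lie above the 3 naive ones for every gene except Ighd, where they lie below.

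Among light chains, Iglc1, the constant region of lambda 1, was the 1 called gene of 4 (3 with the replicate block, all higher), against 2.62% called among all tested genes. It was at 9719, 3091 and 13222 CPM in activated libraries and 688, 521 and 552 CPM in naive libraries (log2 change 3.89, SE 0.471, adjusted p = 0.00272). Lambda genes together held 38.4%, 35.5% and 41.6% of light constant counts in activated libraries, against 24.5%, 26.6% and 25.9% in naive libraries (exact permutation p = 0.1). The lambda constant genes are near copies of each other, which limits how their reads can be assigned.

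The use of heavy chain variable segments was narrower in activated cells. The largest share of Ighv counts was that of Ighv1-72 in all 3 activated libraries, at 12.6%, 9.43% and 17.9%, against 5.26%, 5.07% and 4.60% for the largest in naive libraries, which was Ighv1-26 in replicates 1 and 3 and Ighv9-3 in replicate 4. The effective number of segments, the inverse of the Simpson index, was 27.9, 32.8 and 19.1 in activated libraries and 47.5, 47.3 and 47.3 in naive libraries. Variable segments named here were chosen after their values were seen. Ighv1-72, a segment known from the response of C57BL/6 mice to the hapten NP, in which it pairs with lambda 1 chains, held 2.12%, 1.74% and 2.33% in naive libraries. Its level was 338, 197 and 898 CPM in activated libraries and 24.2, 16.1 and 24.3 CPM in naive libraries (log2 change 4.47, SE 0.523, adjusted p = 0.00248, and 0.0773 without activated replicate 1), and Iglv1, the variable segment of lambda 1, had a log2 change of 3.999 (SE 0.466, adjusted p = 0.00248). The labels used here name no antigen.

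Of 17 plasma cell genes listed, 14 could be tested and 3 were higher, against 2.14% higher among all tested genes, with 0 lower and a median log2 change of 0.84. Jchain, the linker of polymeric IgM and IgA, was at 4165, 1525 and 7347 CPM in activated libraries against 25.3, 10.03 and 13.7 CPM in naive libraries (log2 change 8.05, SE 0.669, adjusted p = 0.000657). Ly6c2, a surface protein of plasma cells and of some myeloid and T cells, was at 78.4, 35.1 and 116 CPM against 9.84, 5.75 and 6.66 CPM in naive libraries (log2 change 3.36, SE 0.426, adjusted p = 0.00303). Both were called in all 6 fits with a library left out. Mzb1, an endoplasmic reticulum (ER) chaperone of antibody chains found in plasma, marginal zone and B-1 cells, was at 33.5, 27.5 and 41.6 CPM against 14.2, 11.5 and 13.2 CPM in naive libraries (log2 change 1.40, SE 0.238, adjusted p = 0.0146), and reached an adjusted p of 0.120 without naive replicate 1, 3 or 4 or activated replicate 4.

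Prdm1, which encodes BLIMP1, the repressor that sets the plasma cell programme, divided the activated libraries. It was at 1.09, 16.6 and 17.1 CPM in activated replicates 1, 3 and 4, against 0.486, 2.57 and 1.01 CPM in naive ones, so activated replicate 1 lay among the naive libraries. The adjusted p was 0.109 (log2 change 3.10, SE 0.865), and 0.0121 with the replicate block. The Jchain level of activated replicate 1 lay between those of activated replicates 3 and 4. Xbp1, which drives expansion of the ER, was at 382, 290.4 and 687 CPM in activated libraries and 282, 224 and 229.8 CPM in naive libraries (adjusted p = 0.179). Irf4, which acts in both switching and plasma cell formation, was at 73.5, 71.9 and 73.7 CPM in activated libraries and 59.4, 71.9 and 80.3 CPM in naive libraries (log2 change 0.05, SE 0.178, adjusted p = 0.935). With the replicate block 6 of the 14 plasma cell genes were called; without naive replicate 1, 3 or 4 or activated replicate 4, 2 were called in each fit, and without activated replicate 1 or 3, 8 in each.

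Of 40 genes of the ER and secretory pathway, all tested, 3 were higher and 0 lower (5 higher with the replicate block), against 2.14% higher among all tested genes, with a median log2 change of 0.46. Edem1, which passes misfolded glycoproteins to degradation, was at 215, 204 and 299.9 CPM in activated libraries against 89.9, 80.4 and 94.1 CPM in naive libraries (log2 change 1.44, SE 0.196, adjusted p = 0.00409). Derl3, a channel component of ER-associated degradation, was at 23.5, 22.2 and 71.7 CPM against 4.98, 3.91 and 3.65 CPM in naive libraries (log2 change 3.22, SE 0.476, adjusted p = 0.00695). Txndc11, a thioredoxin-domain protein, was at 138, 139 and 149 CPM against 77.1, 80.00 and 80.3 CPM in naive libraries (log2 change 0.84, SE 0.156, adjusted p = 0.0204). All 3 called genes act on protein folding or its quality control. Their number was 1, 0 and 1 among the 40 without naive replicate 1, 3 or 4, and 8, 14 and 2 without activated replicate 1, 3 or 4.

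The promoter of Derl3 is shown because its gene had the largest change of the list and because the window holds the full ER stress response element, that is CCAAT and CCACG with 9 bases of any kind between them, which ATF6 and XBP1 are known to bind with NF-Y. The window runs from 250 bases before to 50 bases after the start of the RefSeq transcript on GRCm38.p6, at chr10:75893148-75893447 on the plus strand. The capitals mark the element, which lies on the opposite strand and therefore begins with CGTGG and ends with ATTGG; its last 5 bases are also a CCAAT box. Searched on both strands, the element was present in 0.119% of the 32851 RefSeq promoter windows of the same length, and it was the 1 such match among the 4 windows of the 3 called genes. A match describes these letters and is not evidence of binding.
Derl3: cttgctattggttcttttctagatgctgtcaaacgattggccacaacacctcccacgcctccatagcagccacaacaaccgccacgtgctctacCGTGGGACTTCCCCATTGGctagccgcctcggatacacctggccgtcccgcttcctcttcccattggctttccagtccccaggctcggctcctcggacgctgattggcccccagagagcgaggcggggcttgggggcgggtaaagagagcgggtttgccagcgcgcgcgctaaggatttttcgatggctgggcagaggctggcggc

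Part of the genes of naive follicular B cells were lower in activated cells. Of 18 such genes, all tested, 9 were lower and 0 higher (12 lower with the replicate block), against 0.476% lower among all tested genes, and their median log2 change was -0.88. Ccr6, a chemokine receptor, was at 39.4, 64.3 and 49.03 CPM in activated libraries against 202, 167 and 157 CPM in naive libraries (log2 change -1.78, SE 0.217, adjusted p = 0.00272). Icosl, the ligand through which B cells engage ICOS on T cells, was at 67.6, 108 and 105 CPM against 268, 341 and 317 CPM in naive libraries (log2 change -1.72, SE 0.215, adjusted p = 0.00295). Fcer2a, the gene of the low-affinity IgE receptor CD23, was at 541, 303 and 436 CPM against 1297, 1085 and 1263 CPM in naive libraries (log2 change -1.51, SE 0.228, adjusted p = 0.00782). The groups did not overlap in any of these genes, and the 3 naive libraries lay close together.

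Ighd, also on this list, is given above. Other called genes were Gpr174, a receptor for lysophosphatidylserine, Cd55, a complement regulator, Il4ra, the receptor chain for IL-4 and IL-13, and Satb1, a chromatin organiser. Their log2 changes lay between -1.25 for Gpr174 and -0.91 for Il4ra, and Gpr174 was at 47.02, 58.04 and 73.8 CPM in activated libraries and 145, 138 and 143 CPM in naive libraries. Called genes of the list numbered 3, 4 and 3 without naive replicate 1, 3 or 4, and 10, 11 and 4 without activated replicate 1, 3 or 4. Ccr6, Icosl and Ighd were called in all 6, whereas Fcer2a was not without naive replicates 1 or 4 or activated replicate 4, with adjusted p of at most 0.0663.

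Most of the marginal zone genes tested were higher. Of 15 listed, 14 were tested, and 9 were higher and 0 lower, against 2.14% higher among all tested genes, with a median log2 change of 1.46. Cd9, a tetraspanin of marginal zone, B-1 and plasma cells, was at 201, 155 and 179 CPM in activated libraries against 27.5, 34.7 and 24.3 CPM in naive libraries (log2 change 2.63, SE 0.206, adjusted p = 0.000657). Fcrl5, an Fc receptor-like protein of innate-like B cells, was at 143, 174 and 169.5 CPM against 41.3, 48.3 and 38.7 CPM in naive libraries (log2 change 1.92, SE 0.180, adjusted p = 0.00141). Cd36, a scavenger receptor, was at 275, 299 and 304 CPM against 105, 98.96 and 97.8 CPM in naive libraries (log2 change 1.54, SE 0.156, adjusted p = 0.00151). For each of them the libraries of a group lay close together, unlike those of the antibody genes. Ackr3, an atypical receptor that binds CXCL12, was at 17.9, 23.5 and 22.3 CPM against 0.365, 0.612 and 2.26 CPM in naive libraries (log2 change 4.29, SE 0.523, adjusted p = 0.00272).

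The other called marginal zone genes were Cd1d1, which presents lipids, S1pr3, a sphingosine 1-phosphate receptor, Myof, Plac8 and Mzb1, with log2 changes of 1.36 to 1.93. Cr2, the complement receptor CD21 that is high on marginal zone cells, did not follow them. It was at 359, 1067 and 573 CPM in activated libraries and 643, 751 and 655 CPM in naive libraries, with the lowest and the highest of the 6 values both among activated libraries (log2 change -0.04, SE 0.328, adjusted p = 0.975). The 9 calls were 5, 4 and 5 without naive replicate 1, 3 or 4, and 10, 10 and 6 without activated replicate 1, 3 or 4.

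Of 14 genes of B-1 cells, 12 were tested and 6 were higher with 0 lower, against 2.14% higher among all tested genes, with a median log2 change of 1.81. Anxa2, a membrane-binding annexin, was at 61.2, 41.3 and 53.5 CPM in activated libraries against 10.6, 12.97 and 11.4 CPM in naive libraries (log2 change 2.15, SE 0.232, adjusted p = 0.00212). Zbtb32, a transcription factor of B-1 and memory responses, was at 34.8, 47.6 and 39.9 CPM against 3.40, 8.07 and 5.15 CPM in naive libraries (log2 change 2.88, SE 0.323, adjusted p = 0.00229). Plscr1, a phospholipid scramblase that interferon also induces, was at 50.7, 39.2 and 57.6 CPM against 12.5, 12.7 and 13.8 CPM in naive libraries (log2 change 1.91, SE 0.225, adjusted p = 0.00248). All 3 were called with each library left out. Bhlhe41, a transcription factor needed by B-1a cells, had a log2 change of 1.95 (SE 0.315, adjusted p = 0.0107), with adjusted p up to 0.0937 without naive replicate 1 or 3. Cd5, the surface mark of B-1a cells that follicular cells lack, was at 1.09, 7.26 and 8.05 CPM in activated libraries and 1.46, 2.08 and 1.76 CPM in naive libraries (adjusted p = 0.279), so activated replicate 1 was below the naive libraries and activated replicates 3 and 4 above them. T cell markers are given below, and the part of such cells in this value was not tested. Of the 12 genes 3, 4 and 4 were called without naive replicate 1, 3 or 4, and 8, 7 and 4 without activated replicate 1, 3 or 4.

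Variable segments that B-1a cells specific for phosphatidylcholine are known to use were also higher. Ighv11-2 was at 41.4, 87.3 and 60.4 CPM in activated libraries against 2.67, 9.30 and 3.39 CPM in naive libraries (log2 change 3.62, SE 0.466, adjusted p = 0.00324). Its usual partner Igkv14-126 was at 179, 231 and 168 CPM against 20.9, 34.1 and 21.7 CPM in naive libraries (log2 change 2.91, SE 0.245, adjusted p = 0.000657). The second such pair, Ighv12-3 and Igkv4-91, had log2 changes of 2.57 and 2.16, with adjusted p of 0.00409 and 0.00436; without naive replicate 3 that of Igkv4-91 was 0.0535. Both members of both pairs were above every naive library in every activated library. Such a rise was common, as 50 of the 189 variable segments tested were higher and 0 lower. Among other segments without overlap, Ighv6-6 had a log2 change of 3.16 and Ighv6-3 of 2.82. Shares of variable segment counts are not given for these pairs.

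**Figure D3:**
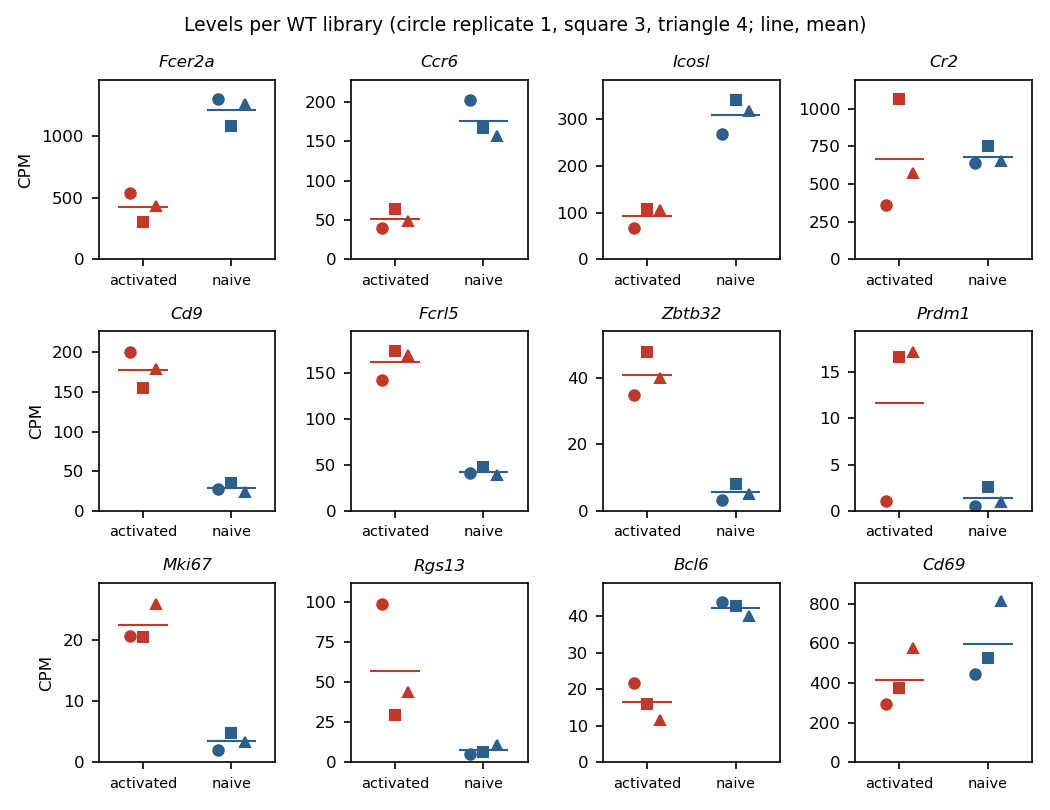
Levels in CPM of 12 genes in the 6 WT libraries, on linear axes that start at 0, with activated libraries in red on the left of each panel and naive ones in blue on the right; the marker shape gives the replicate number and the line the mean of 3. Fcer2a, Ccr6, Icosl and Bcl6 are lower and Cd9, Fcrl5, Zbtb32, Mki67 and Rgs13 higher in all 3 activated libraries, whereas Cr2, Prdm1 and Cd69 overlap between the groups.

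Genes of the germinal centre moved in both directions. Of 16 listed, all tested, 4 were higher and 2 lower (5 and 2 with the replicate block), against 2.14% higher and 0.476% lower among all tested genes, with a median log2 change of 1.05. Rgs13, a regulator of G protein signalling in germinal centre cells, was at 99.1, 29.3 and 43.8 CPM in activated libraries against 5.47, 6.36 and 10.8 CPM in naive libraries (log2 change 2.92, SE 0.461, adjusted p = 0.00978). Activated replicate 3 was the lowest activated library. Of the other called genes, Nuggc and Mef2b were also higher, with log2 changes of 2.65 and 2.23 and adjusted p of 0.0307 and 0.0466.

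The 2 lower genes were transcription factors that germinal centre cells are known to hold at high levels. Bcl6, the repressor that defines the germinal centre programme, was at 21.7, 15.9 and 11.7 CPM in activated libraries against 43.9, 42.9 and 40.1 CPM in naive libraries (log2 change -1.37, SE 0.252, adjusted p = 0.0202). Lmo2, a LIM-domain cofactor, was at 170.4, 134 and 148 CPM against 347, 343 and 355 CPM in naive libraries (log2 change -1.21, SE 0.164, adjusted p = 0.00406), and was called with each library left out. For Rgs13 the adjusted p was up to 0.0902 without naive replicates 1 or 3. For Bcl6 the adjusted p was as high as 0.121 without naive replicates 1, 3 or 4 or activated replicate 4. Of the list, 2, 1 and 2 were called without naive replicate 1, 3 or 4, and 6, 11 and 2 without activated replicate 1, 3 or 4.

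The label of the group was set against the usual surface signs of recent activation, of which 2 were called in the main fit, in opposite directions. Of 18 such genes 15 were tested, and 1 was higher and 1 lower (1 and 2 with the replicate block). Among all tested genes 2.14% were higher and 0.476% lower. The median log2 change of the list was 0.39. Without activated replicate 1, 3 or 4 the higher genes numbered 4, 3 and 1 and the lower ones 2, 1 and 1. Without naive replicate 1, 3 or 4 there were 0 higher and 1 lower in each fit. Limma voom with quality weights called 6 higher and 2 lower, DESeq2 2 and 2, and edgeR without a filter on low counts 4 and 2. With all 17 libraries in the fit 0 were called. Il2ra, the alpha chain of the IL-2 receptor, was the higher one, at 15.7, 9.31 and 6.34 CPM in activated libraries against 1.70, 1.10 and 1.76 CPM in naive libraries (log2 change 2.76, SE 0.452, adjusted p = 0.0119, up to 0.0935 without naive replicate 1, 3 or 4). Icosl, given above, was the lower one. Cd69, an early mark of activation that holds lymphocytes in tissue, was at 296, 376 and 577 CPM in activated libraries and 447, 529 and 811 CPM in naive libraries (log2 change -0.52, SE 0.286, adjusted p = 0.492). Within each replicate number the activated library had the lower value.

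Cd83 was at 643, 429 and 584 CPM in activated libraries against 1047, 859 and 853 CPM in naive libraries (log2 change -0.74, SE 0.200, adjusted p = 0.0976, and 0.0215 with the replicate block, where it was the second lower gene). Cd86, which gives T cells their second signal, was at 103, 129.6 and 124 CPM and Cd44, a hyaluronan receptor, at 89.3, 104 and 105 CPM in activated libraries, against 96.7, 78.8 and 84.7 and 68.4, 57.98 and 62.2 CPM in naive libraries. Both were above every naive library in each activated library, and their adjusted p were 0.276 and 0.0823. Cd80 did not pass the filter on low counts in the main fit. It was at 0.365, 11.5 and 9.51 CPM in activated libraries and 0.486, 1.10 and 0.754 CPM in naive libraries, with activated replicate 1 the lowest of the 6. Without activated replicate 1 Cd80 was tested and called higher (adjusted p = 0.000438). Without naive replicate 1, 3 or 4 it was tested and not called (adjusted p up to 0.396). The label activated is kept here as the name of the sorted group.

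Genes induced within hours of receptor signals were not called in the main fit, and neither were those of NF-kB. Of 21 early genes 19 were tested with 0 higher and 0 lower (1 higher with the replicate block), and a median log2 change of -0.18. Myc was at 129, 197 and 256 CPM in activated libraries and 80.3, 118 and 153 CPM in naive libraries (log2 change 0.73, SE 0.288, adjusted p = 0.294). Each activated library was above the naive library of its number, and the adjusted p with the block was 0.0261. Of the 5 NF-kB subunit genes 0 were called, and their median log2 change was -0.48. Rela was at 65.1, 129 and 106 CPM in activated libraries and 152, 160.1 and 158 CPM in naive libraries (log2 change -0.65, adjusted p = 0.248), and Relb at 30.4, 59.99 and 40.9 CPM and 68.8, 69.1 and 65.9 CPM in the same order (log2 change -0.63, adjusted p = 0.284). Nfkb2, which encodes p52, was at 80.2, 149 and 98.8 CPM in activated libraries and 137, 146 and 175 CPM in naive libraries (log2 change -0.48, SE 0.235, adjusted p = 0.425). Activated replicate 1 was the lowest of the 6 libraries for all 3 subunits. Without activated replicate 3, 3 of the 5 were called lower, and 0 without any other library. On all 6 libraries limma voom with quality weights also called 3 of the 5 lower, Nfkb2, Rela and Relb.

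The 17 feedback and target genes of NF-kB had 0 calls and a median log2 change of 0.00 (2 higher and 1 lower without activated replicate 3, and 3 higher and 2 lower by limma voom). Of 13 ETS family genes 0 were called (1 lower without activated replicate 3), with a median of -0.24. Ets1, the partner of p52 named in the series title, was at 301, 448 and 349.6 CPM in activated libraries against 553, 566 and 599 CPM in naive libraries, with no overlap (log2 change -0.64, SE 0.184, adjusted p = 0.118). With the replicate block its adjusted p was 0.0436, the 1 call in that list. Of 16 pan-B genes 0 were called, and with the block 1, Cd22, an inhibitory coreceptor, was lower (log2 change -0.71, adjusted p = 0.0949 and 0.0280 with the block). The 26 genes of B cell receptor signalling likewise had 0 calls, and with the block Cd22 alone. DESeq2, limma voom with quality weights and edgeR without a filter on low counts each called Ets1 and Cd22 lower. So did the main test without activated replicate 3. Among all tested genes 2.62% were called, so 0 calls in lists of this size are near that share. A p above the threshold does not show that these genes had the same level in both groups.

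Part of the genes of cell division were higher. Of 41 genes of the G2 and M phases 40 were tested, and 18 were higher and 0 lower (20 and 0 with the replicate block), against 2.14% higher among all tested genes, with a median log2 change of 1.57. Mki67, the proliferation antigen Ki-67, was at 20.6, 20.5 and 25.9 CPM in activated libraries against 2.07, 4.77 and 3.39 CPM in naive libraries (log2 change 2.71, SE 0.338, adjusted p = 0.00295). Kif11, the kinesin that separates the spindle poles, was at 22.6, 23.8 and 36.1 CPM against 4.25, 6.48 and 6.41 CPM in naive libraries (log2 change 2.27, SE 0.299, adjusted p = 0.00351). Top2a, the topoisomerase that untangles chromosomes, was at 35.9, 22.4 and 36.3 CPM against 8.14, 8.20 and 10.6 CPM in naive libraries (log2 change 1.81, SE 0.272, adjusted p = 0.00761), and Birc5, survivin, had a log2 change of 2.51 (SE 0.377, adjusted p = 0.00761). The 14 others ran from 1.17 for Aurkb to 3.26 for Anln.

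The number of calls in this list rested strongly on single libraries. It was 2, 2 and 3 without naive replicate 1, 3 or 4, and 23, 27 and 4 without activated replicate 1, 3 or 4. Mki67 and Kif11 were called in all 6 fits. Of 36 S phase genes, all tested, 3 were higher and 0 lower, against 2.14% higher among all tested genes. Among the 3 were Rrm2, a subunit of ribonucleotide reductase, and Cdc45, a part of the replicative helicase. Rrm2 was at 65.6, 41.5 and 74.4 CPM in activated libraries and 18.8, 16.4 and 13.1 CPM in naive libraries (log2 change 1.91, SE 0.268, adjusted p = 0.00505). The median over the list was 0.40, and 1, 0, 0, 4, 7 and 1 genes were called higher without naive replicate 1, 3 or 4 or activated replicate 1, 3 or 4, in that order.

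Promoters of the dividing-cell genes are shown because 2 short motifs that were not used to choose them were in most windows of the called members. The cell cycle genes homology region, TTTGAA, is known to bind the DREAM and MuvB complexes that time expression to G2 and M, and the CCAAT box to bind NF-Y. Searched on both strands of 300 bases around the RefSeq start on GRCm38.p6, TTTGAA was in 13 of 17 windows of the 16 called genes that matched the table (76.5%) and in 17.9% of all 32851 windows. CCAAT was in 14 of the 17 (82.4%) and in 37.4% of all. Birc5 and Nusap1 held neither. The windows of Mki67 (chr7:135716330-135716629, minus strand), Kif11 (chr19:37376132-37376431, plus strand) and Top2a (chr11:99024140-99024439, minus strand) follow, with both motifs in capitals, where TTCAAA and ATTGG are their forms on the opposite strand. The 2 motifs do not overlap in them. Members of the list that were not called were not counted apart, so these shares may belong to the list as a whole. The match is a description of sequence and was not tested for a part in the change.
Mki67: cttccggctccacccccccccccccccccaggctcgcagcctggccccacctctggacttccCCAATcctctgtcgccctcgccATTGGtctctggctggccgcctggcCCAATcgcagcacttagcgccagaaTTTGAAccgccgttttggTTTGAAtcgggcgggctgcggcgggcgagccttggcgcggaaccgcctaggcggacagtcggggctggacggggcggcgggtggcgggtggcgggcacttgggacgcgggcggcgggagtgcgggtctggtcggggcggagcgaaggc
Kif11: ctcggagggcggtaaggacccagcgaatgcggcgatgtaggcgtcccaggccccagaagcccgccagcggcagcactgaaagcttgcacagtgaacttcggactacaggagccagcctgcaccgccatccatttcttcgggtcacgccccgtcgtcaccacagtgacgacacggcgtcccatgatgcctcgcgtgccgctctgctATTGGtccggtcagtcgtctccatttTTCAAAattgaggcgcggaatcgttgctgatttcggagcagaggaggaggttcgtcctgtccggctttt
Top2a: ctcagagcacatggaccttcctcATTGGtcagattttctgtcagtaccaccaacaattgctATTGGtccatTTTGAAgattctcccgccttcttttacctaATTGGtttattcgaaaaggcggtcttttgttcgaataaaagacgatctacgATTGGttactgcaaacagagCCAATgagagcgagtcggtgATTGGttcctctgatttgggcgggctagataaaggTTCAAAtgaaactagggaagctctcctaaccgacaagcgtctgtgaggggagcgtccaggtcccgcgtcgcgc

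No gene of the growth and energy lists was called by edgeR in the main fit. Among 18 genes of ribosome biogenesis and MYC targets, 16 of glycolysis, 24 of oxidative phosphorylation, 18 tested of cholesterol synthesis and 13 mitochondrially encoded genes, 0 were called, and 0 with the replicate block. Among all tested genes 2.62% were called. Of these 89 genes 4 had an unadjusted p under 0.05, DESeq2 called 2, limma voom with quality weights 11 and edgeR without a filter 1. In oxidative phosphorylation 21 of 24 genes had a log2 change above 0, with a median of 0.36, and 6 of its genes were called higher and 1 lower without activated replicate 3. Of 9 tested heat shock genes 0 were called, and 2 were lower with the block.

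Genes of migration moved both ways. Of 20, all tested, 3 were higher and 5 lower (4 and 6 with the replicate block), against 2.14% higher and 0.476% lower among all tested genes. The median log2 change was -0.33. The 3 higher were Ackr3 and S1pr3, both given above, and Itgb1, the integrin beta 1 chain, at 88.2, 129 and 86.1 CPM in activated libraries against 37.3, 41.3 and 43.99 CPM in naive libraries (log2 change 1.31, SE 0.210, adjusted p = 0.0106). Ccr6, Itgb7, Gpr183 and P2ry10 were among the lower genes. Itgb7, the integrin chain of gut homing, was at 68.7, 98.2 and 96.2 CPM against 202, 208 and 215 CPM in naive libraries (log2 change -1.24, SE 0.185, adjusted p = 0.00746). Gpr183, the oxysterol receptor EBI2 that guides B cells to the outer follicle, was at 185, 114 and 169 CPM against 412, 266 and 301 CPM in naive libraries (log2 change -1.06, SE 0.235, adjusted p = 0.0446). Of the list 2 were called in each fit without naive replicate 1, 3 or 4, 8 and 12 without activated replicate 1 or 3, and 4 without activated replicate 4.

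Of 12 genes of MHC class II presentation, all tested, 2 were lower and 0 higher (2 and 1 with the replicate block), against 0.476% lower and 2.14% higher among all tested genes. The median log2 change was -0.42. Ciita, the master activator of class II genes, was at 175, 236 and 205 CPM in activated libraries against 383, 419.7 and 395 CPM in naive libraries (log2 change -0.96, SE 0.170, adjusted p = 0.0172). H2-DMb1, which helps load peptides, was at 142, 133 and 152 CPM against 244, 267 and 265 CPM in naive libraries (log2 change -0.86, SE 0.156, adjusted p = 0.0199). Neither was called without naive replicate 1, 3 or 4 or activated replicate 4, with adjusted p of at most 0.133.

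Smaller lists had 1 or 2 calls each, against 2.14% higher and 0.476% lower among all tested genes. Among 13 tested genes of Toll-like receptor signalling Tlr3, which senses double-stranded RNA, and Ly96, the MD-2 partner of TLR4, were higher. Tlr3 was at 18.8, 43.9 and 32.4 CPM in activated libraries and 5.83, 6.97 and 8.67 CPM in naive libraries (log2 change 2.15, SE 0.336, adjusted p = 0.00971), and Ly96 at 34.3, 32.6 and 36.7 CPM and 11.2, 13.7 and 12.1 CPM in the same order (log2 change 1.49, SE 0.213, adjusted p = 0.00573). Bid, which carries death receptor signals to mitochondria, was the 1 higher gene of 13 tested in the BCL2 family (log2 change 0.89, SE 0.163, adjusted p = 0.0200). Among 26 tested genes of the interferon response 1, Rsad2, was higher (log2 change 1.55, SE 0.309, adjusted p = 0.0281), and 3 were with the replicate block. The 1 of 26 in the main fit is near the share over all tested genes. Cd93, found on immature B cells and on some plasma cells, was the 1 higher gene of 4 tested immature B cell genes (log2 change 2.25, SE 0.492, adjusted p = 0.0430). Of 9 tested memory genes 2 were lower, Ccr6 and Gpr183, and 0 higher. Of 6 tested genes of atypical B cells Fcrl5 was higher, and 3 were higher with the block. Among these, Tlr3, Bid, Rsad2, Cd93 and Gpr183 were not called without naive replicate 1, 3 or 4, nor Ly96 without replicate 1 or 4, with adjusted p up to 0.229; Bid, Rsad2, Cd93 and Gpr183 were not called without activated replicate 4 either. The 14 tested genes of the list of TNF receptors, TRAFs and their signalling had 0 calls. With the block Ikbkb, the gene of the kinase IKK-beta, was lower (log2 change -0.63, adjusted p = 0.142 and 0.0448 with the block). DESeq2, limma voom with quality weights and the main test without activated replicate 3 also called Ikbkb.

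**Figure D4:**
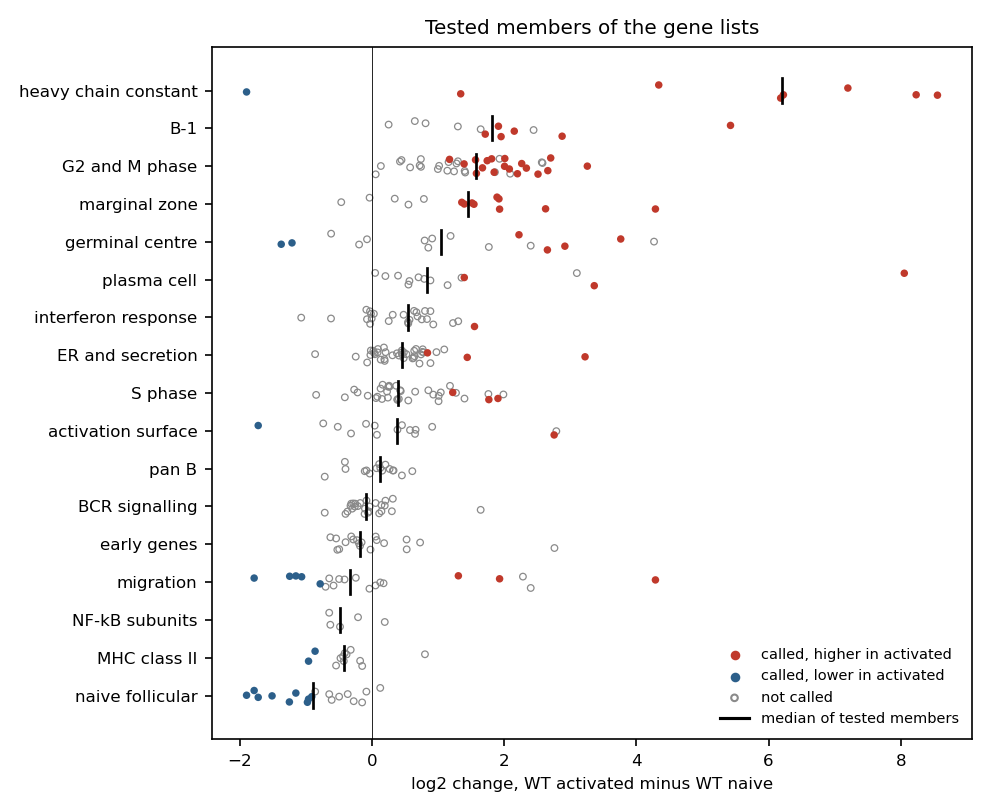
Each point is a tested member of a gene list, placed by its log2 change (WT activated minus WT naive); filled red points were called higher in activated cells, filled blue ones lower, and open points were not called, and the black bar is the median of the tested members. The medians run from 6.20 for heavy chain constant genes to -0.88 for naive follicular genes, and 18 of 40 G2 and M phase genes, 9 of 14 marginal zone genes and 9 of 18 naive follicular genes are filled.

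Beyond these lists, the 10 largest increases among called genes averaging 5 CPM or more in a group were Prg2, Ighg1, Ighe, Jchain, Ighg2b, Slpi, Ighg3, Ighg2c, Ankrd55 and Wfdc21. Prg2, a granule protein best known from eosinophils, had 88, 71 and 235 counts in activated libraries and 0 in each naive library, and was at least 140-fold higher, taking 3 counts over the naive group as the floor (adjusted p = 0.00287). Other genes of eosinophils, chosen after this value was seen, had few counts. Epx had 0, 0 and 3 counts in activated replicates 1, 3 and 4, Prg3 had 0, 1 and 5 and Ear1 had 0, 0 and 5, each with 0 in every naive library, and Siglecf had 0 in each activated library and 1 count in all in naive libraries. Epx, Prg3, Ear1 and Prg2 were all highest in activated replicate 4, and the part of such cells in the Prg2 value was not tested. Slpi, a secreted protease inhibitor, was at 386, 92.2 and 856 CPM in activated libraries against 5.23, 3.18 and 3.65 CPM in naive libraries (log2 change 6.78, SE 0.765, adjusted p = 0.00233, and 0.140 without activated replicate 1). Wfdc21, a small secreted protein of the same fold family, was at 59.4, 8.01 and 10.5 CPM against 0.608, 0.856 and 0 CPM in naive libraries (log2 change 5.66, SE 0.990, adjusted p = 0.0162, up to 0.113 without naive replicate 1, 3 or 4), with activated replicate 1 far above the other 2. Ankrd55 had 158 counts in activated libraries and 2 in naive libraries, a scaled ratio of 84.0 with a counting interval of 22.9 to 699.

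The 10 largest decreases were those of Rflnb, Ighd, Rnf144a, Rph3al, Ccr6, Mapk11, Stat4, Icosl, Parp16 and Neurl3. Rflnb, an actin-binding protein, was at 7.65, 5.74 and 10.9 CPM in activated libraries against 54.9, 35.7 and 48.1 CPM in naive libraries (log2 change -2.52, SE 0.294, adjusted p = 0.00248). Mapk11, the beta isoform of the p38 kinase, was at 29.7, 30.97 and 36.2 CPM against 118, 114 and 98.2 CPM in naive libraries (log2 change -1.76, SE 0.182, adjusted p = 0.00151). Stat4, which carries IL-12 and interferon signals, was at 23.9, 20.6 and 30.5 CPM against 104, 72.2 and 74.2 CPM in naive libraries (log2 change -1.74, SE 0.233, adjusted p = 0.00386). The ubiquitin ligases Neurl3 and Rnf144a had log2 changes of -1.58 and -1.89. Of the 10, Rph3al and Parp16 lost their call without naive replicate 1, 3 or 4 or activated replicate 4, with adjusted p of at most 0.213, and the other 8 were called in all 6 fits.

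Markers of other spleen cells summed to 0.489 to 315 CPM a list in the 6 libraries and some differed, against 2.14% higher among all tested genes. T cell markers had 1 of 8 tested genes higher, Il7r, the IL-7 receptor chain, at 5.10, 3.03 and 5.61 CPM in activated libraries and 0, 0.367 and 0.503 CPM in naive libraries, and the 15 listed summed to 58.8 to 103 CPM in activated libraries and 51.0 to 57.4 CPM in naive libraries. Macrophage and monocyte markers had 1 of 11 tested genes higher, Sirpa, an inhibitory receptor (log2 change 1.73, adjusted p = 0.0284; 3 higher with the replicate block), and the 16 listed summed to 105 to 153 CPM against 58.5 to 85.6 CPM in naive libraries. Natural killer markers, with 0 called of 6 tested, summed to 18.8 to 42.1 CPM in activated libraries and 9.54 to 20.5 CPM in naive libraries. Dendritic cell markers, with 0 called of 5 tested, summed to 146 to 315 CPM and 154 to 202 CPM in the same order, with Clec9a at 0 throughout. Neutrophil markers had no testable gene and summed to 0.729 to 5.09 CPM in activated libraries and 0.489 to 2.39 CPM in naive libraries, with Retnlg, Csf3r and Elane at 0. Red cell and platelet markers, with 0 called of 4 tested, summed to 28.3 to 304 CPM and 15.8 to 244 CPM in the same order. Stroma and endothelium markers, with 0 called of 2 tested, summed to 90.8 to 181 CPM in activated libraries and 167 to 211 CPM in naive libraries. Of these 2 genes 1 had a log2 change above 0. Without naive replicate 1, 3 or 4 or activated replicate 4, neither Il7r nor Sirpa was called (adjusted p up to 0.155). Log2 changes were above 0 for 7 of 8 tested T cell markers (median 1.41) and 6 of 6 natural killer markers (1.33). They were also above 0 for 8 of 11 macrophage and monocyte markers (0.48), 4 of 5 dendritic cell markers (0.40) and 4 of 4 red cell and platelet markers (0.59). The part of these cells in the results above was not tested.

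The same comparison in p52ki cells, fitted on the 3 activated and 3 naive p52ki libraries, gave 357 genes higher (2.62% of 13603) and 116 lower (0.853%). Of the 352 genes called in WT, 340 were tested in p52ki, all 340 had the same direction there and 235 were called as well. Since these genes were selected on the WT libraries, their median absolute log2 change, 1.90 in WT and 1.48 in p52ki, is given only as a description. The difference of the 2 changes, tested as an interaction in the 12 libraries, was called for 0 of 14348 genes by edgeR, with 247 at an unadjusted p under 0.05. That is below the share of 0.05 that uniform p-values would give, and 0 calls do not show that the 2 changes were equal. Limma voom with quality weights also called 0, with 1189 at an unadjusted p under 0.05. DESeq2 called 3 genes, Alpl, Ighv1-62-3 and Ighv1-72, and the fit with the replicate block called Ighv1-72 alone. Without WT activated replicate 3, 4 genes were called, Ighv1-62-3, Ighv1-72, Iglc1 and Iglv1, and 0 without any other of the 12 libraries. The WT libraries are numbered 1 to 12 and the p52ki libraries 19 to 30 in the series, so genotype and any effect of that order cannot be told apart.

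Ighv1-72, named after its values were seen, had a log2 change of 4.47 in WT and 1.15 in p52ki, a difference of 3.31 (SE 0.560, adjusted p = 0.362 by edgeR, 2.45e-05 by DESeq2 and 0.0129 with the block). In the 12-library scaling its level was 342, 199 and 910.3 CPM in WT activated libraries and 50.7, 36.8 and 39.04 CPM in p52ki activated libraries. Alpl, the tissue-nonspecific alkaline phosphatase, had log2 changes of 3.95 in WT and 1.43 in p52ki (difference 2.51, SE 0.504, adjusted p = 0.701 by edgeR and 0.00176 by DESeq2). For Ighg3 the changes were 6.22 and 3.67, WT first, and for Iglc1 3.89 and 2.05, with differences of 2.55 (SE 0.666) and 1.82 (SE 0.524) and adjusted p of 1.00 for both. Without a filter on low counts edgeR called 16 of 26707 genes, 15 of them with the higher log2 change in WT. They included Ighg3 (adjusted p = 8.26e-12), Iglc1 (5.75e-07), Ighg1 (0.0123), Ighg2b (0.000112) and Jchain (0.0460). With the filter the same test called 0 of 14348 genes, so these adjusted p depend on that setting. The cause of the shift was not tested. Among the lower genes Fcer2a was at -1.51 in WT and -1.52 in p52ki, and Ccr6 at -1.78 and -1.64; the differences were 0.00 (SE 0.273) and -0.15 (SE 0.293).

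**Figure D5:**
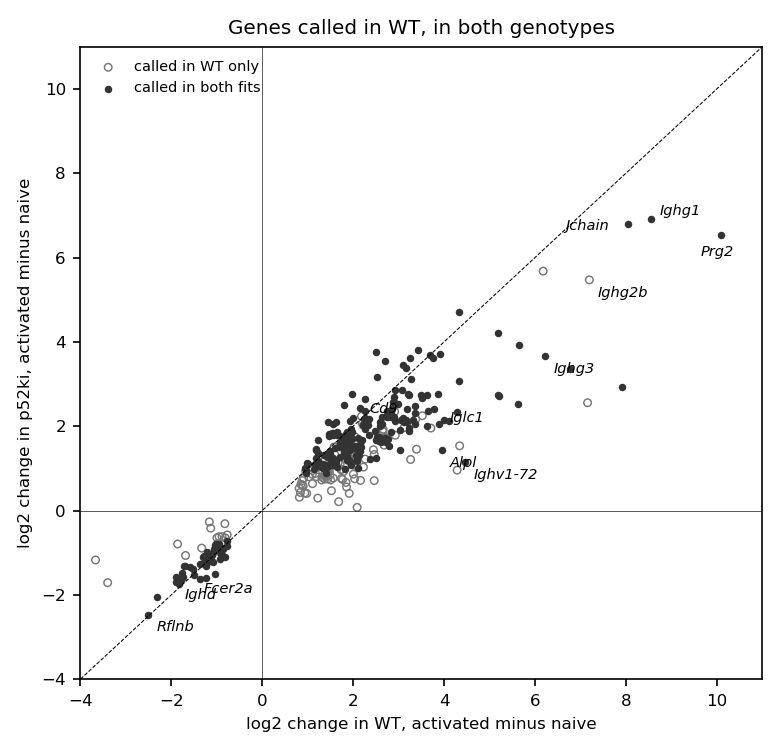
Each point is 1 of the 340 genes called in WT and tested in p52ki, with its log2 change (activated minus naive) in WT across and in p52ki upwards; filled points were called in both fits and the dashed line marks equal changes. All points lie in the lower left or upper right corner, and Ighv1-72, Alpl and Prg2 lie below the line on the higher side, while Ighd, Fcer2a and Rflnb lie near it on the lower side.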

How the data were processed

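The authors deposited 1 table of raw counts per gene, with no normalization. The submitters' processing notes name HISAT2 2.1.0, SAMtools 1.8, Subread 1.6.2, featureCounts and GRCm38; their settings, the use of strand and the handling of shared reads were not stated there. Overlapping genes and antisense partners therefore cannot be separated. Per the labels' protocols full-length cDNA was made from very little RNA with 17 cycles of PCR, and no molecular identifiers are named, so intervals and floors cover counting error only. All 55536 gene identifiers were found in GENCODE release M21.

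The 6 WT libraries were filtered with filterByExpr and scaled by TMM, and each gene was tested in edgeR 4.0.16 (R 4.3.3) by the robust quasi-likelihood pipeline of glmQLFit and glmQLFTest, with 1 coefficient a group. Where no tool is given, an adjusted p comes from this test after Benjamini-Hochberg correction across the genes tested, and called means below 0.05. Levels are CPM on the scaled library sizes, SE is the standard error of the log2 change, and n is 3 a group. The difference between genotypes was an interaction over 12 libraries. The code was tested on simulated data. Alternatives were RLE scaling, no filter, DESeq2 1.42.0, limma 3.58.1 voom with quality weights, a replicate block, each library left out, all 17 libraries in the fit and removal of immunoglobulin genes; the p52ki fit was added after seeing the data.

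Replicate numbers 1, 3 and 4 occur in both groups. Deviations from the group mean correlated between same-numbered libraries at 0.30, 0.24 and 0.15 over 10479 genes with a mean above 5 CPM. Between libraries of different number they ran from -0.34 to 0.14, the highest for activated replicate 3 with naive replicate 4. Deviations from a mean of 3 are tied to each other, so these values are not independent. This weak pattern, not the labels, is the ground for reading the numbers as pairs. The labels do not say whether each replicate was its own animal; p-values describe the spread among these libraries, which may be technical. Libraries of a group differed beyond counting error (chi-square over degrees of freedom, 7.89 to 59.3).

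The comparison, the gene lists and the motifs were chosen with earlier results of these data known. Named were 27 chosen genes, the 10 largest changes in each direction among called genes that averaged 5 CPM or more in a group and did not overlap, and up to 4 called members a list by smallest p, or 2 where none was called; further called members of lists are named too. Results of a few genes that meet the rule are not reported here. Variable segments, predicted genes and sex-control genes were left out of this rule. Ratios of genes with 1 to 3 naive counts carry exact 95% counting intervals.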

Additional observations from a re-analysis of the deposited data

Results flagged for a closer look

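Ighv1-72, the variable segment with the largest share of Ighv counts in the WT activated libraries, was read in the WT germinal centre libraries, which enter no comparison above. It held 32.5%, 27.8% and 32.9% of their Ighv counts, the lowest being 27.8%, against 12.6%, 9.43% and 17.9% in activated libraries and 2.12%, 1.74% and 2.33% in naive libraries. The share in germinal centre libraries drew attention because it lies above every activated and naive library in data outside the comparison; it was not tested.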

How the results depend on the processing

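RLE scaling (367 called), removal of immunoglobulin genes (281) and the p52ki libraries in place of WT (473, chosen after seeing the data) gave counts within 1.5 times the 352. Without a filter on low counts 958 genes were called, 730 higher and 228 lower; with DESeq2 749, 561 and 188; with limma voom and quality weights 1998, 1104 and 894, so that 55.3% were higher against 81.8% in the main fit; and with all 17 libraries in the fit 49, 39 and 10. The cause of these shifts was not tested. The replicate block, which pairs same-numbered libraries, gave 521 called, 399 higher and 122 lower, with 347 of the 352 among them. Of the 89 called genes named in the text it ended no call; it changed no other call than those given beside Cd22, Cd83, Prdm1, Ets1, Ikbkb and Myc and the list counts. Leaving out 1 library gave 88 to 1142 called, 75 to 726 higher and 12 to 416 lower, the least without naive replicate 3 and the most without activated replicate 3. All 17 libraries in the fit ended the call of 58 of the 89 named genes, and leaving out 1 library ended 1 to 45. Named genes changed sign where they were near 0 and not called: with 1 library left out Cr2 ranged from -0.54 to 0.27, above 0 without activated replicate 1 (0.27), naive replicate 3 (0.034) and activated replicate 4 (0.062), and Irf4 from -0.054 to 0.15, below 0 without naive replicate 1; Cd79a ranged from -0.030 to 0.40, below 0 without activated replicate 1.

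The difference between genotypes, with 0 genes called, gave 16 without a filter, 3 with DESeq2, 1 with the replicate block and 0 to 4 with 1 library left out. Log2 ratios of shares kept their sign under every setting tried. In place of 7.22, 0.26, -2.99 and 0.59 for the Ighg1, Ighm, Ighd and lambda shares, CPM gave 8.45, 1.26, -1.996 and 1.93, the 2 scales differing by the share of antibody counts in the library; the Simpson index gave 0.91 in place of 1.42 for the largest Ighv share. With 3 libraries a group, genes at few counts can be called only where their change is large.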

Other observations

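Some genes outside the lists were called with each library left out and are given here as values, chosen after their values were seen. Myb, a transcription factor of early lymphoid and dividing cells, was at 57.96, 42.99 and 41.3 CPM in activated libraries against 1.58, 5.75 and 5.15 CPM in naive libraries (log2 change 3.51, SE 0.404, adjusted p = 0.00244). Eaf2, an elongation factor partner known from germinal centre B cells, was at 68.9, 33.4 and 73.1 CPM against 9.24, 6.48 and 3.02 CPM in naive libraries (log2 change 3.22, SE 0.425, adjusted p = 0.00351). Emb, embigin, a surface glycoprotein of the basigin family, was at 51.2, 66.9 and 48.5 CPM against 8.14, 7.95 and 8.80 CPM in naive libraries (log2 change 2.74, SE 0.228, adjusted p = 0.000657). The libraries of a group did not overlap with those of the other in any of the 3.

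Secreted or surface proteins that act on their surroundings were among these genes too. Adm, which encodes the vasodilator peptide adrenomedullin, was at 34.99, 42.9 and 31.96 CPM in activated libraries against 1.58, 6.12 and 4.40 CPM in naive libraries (log2 change 3.18, SE 0.405, adjusted p = 0.00313). Cfp, properdin of the alternative complement pathway, was at 134, 102 and 98.3 CPM against 30.6, 33.9 and 19.9 CPM in naive libraries (log2 change 1.98, SE 0.242, adjusted p = 0.00272). Entpd1, CD39, which breaks down extracellular ATP, was at 44.5, 43.9 and 49.4 CPM against 16.4, 15.4 and 16.6 CPM in naive libraries (log2 change 1.51, SE 0.197, adjusted p = 0.00337). Ccr1, a chemokine receptor also found on myeloid cells, was at 51.2, 52.4 and 50.3 CPM against 7.78, 15.4 and 11.1 CPM in naive libraries (log2 change 2.17, SE 0.266, adjusted p = 0.00278). Several of these are expressed by myeloid cells as well, whose markers summed to 105 to 153 CPM in activated libraries and 58.5 to 85.6 CPM in naive libraries; their part was not tested.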
